A study of Mus musculus with 8 samples.

Results

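Many of the enzymes that make, activate and inactivate steroid hormones add or remove hydrogen at fixed positions of the steroid ring, and the liver carries out much of the inactivation. Hydroxysteroid dehydrogenases of the HSD3B, HSD11B and HSD17B families interconvert hydroxyl and keto groups, steroid reductases and aldo-keto reductases of the AKR1C family reduce the ring and its keto groups, and the cytochrome CYP17A1 makes androgen precursors. In the mouse liver several of these enzymes are known to be expressed at different levels in males and females. The 10 genes described here encode enzymes of this kind: Hsd3b2, Hsd3b3, Hsd3b5, Hsd11b1, Hsd17b2, Hsd17b6, Hsd17b13, Srd5a1, Akr1c6 and Cyp17a1. They were taken by gene symbol from a table of 24940 genes, all 10 were found, and all 10 passed the filter on low counts that left 12340 genes to test.

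The values are RNA-seq counts from livers of C57BL/6 males, 1 liver per mouse, in 2 genotypes of 4 mice each. Fxr KO mice (livers 1 to 4, labelled FXRKO) carried floxed Bcl6, Bcl6(fl/fl), without Cre and were homozygous for a whole-body deletion of Fxr, FXR(homo). Bcl6 LKO Fxr KO mice (livers 5 to 8, labelled BCL6LKOFXRKO, here double knockout or DKO) had the same alleles plus Albumin-Cre, Alb-Cre, which deletes floxed Bcl6 in hepatocytes. Both genotypes therefore lacked Fxr, the gene of the bile acid receptor FXR (Nr1h4), and the comparison asks what the loss of hepatocyte Bcl6, a transcriptional repressor, adds to it. The study's methods describe animals fed ad libitum or fasted for a short time, and an age is not given in the sources used here.

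Total counts per liver were between 7586241 and 11839503, and a floor of 3 counts corresponded to 0.272 to 0.375 CPM (counts-per-million, scaled with TMM factors), which covers counting error only. Bcl6 was at 21.2 to 65.2 CPM in Fxr KO livers and 4.61 to 11.9 CPM in DKO livers, which fits the labelled genotypes. Nr1h4 was still counted in both genotypes, at 56.7 to 62.6 and 39.4 to 48.1 CPM. It was called lower in DKO livers (log2 fold change -0.46, adjusted p = 0.00497 in edgeR). No liver with intact Fxr was analysed here, so Nr1h4 does not check the labels. Of the 8 hepatocyte markers, which included Alb and Hnf4a, all were well expressed. Alb rose, from 4.04 to 5.16% of all counts in Fxr KO livers to 11.9 to 13.2% in DKO livers, Ttr and Apob fell, and the other 5 were not called. Of the 7 stellate cell markers 4 rose (summed level 98.2 to 153 CPM in Fxr KO and 173 to 300.0 CPM in DKO livers), as did 2 of 6 macrophage markers (262 to 345 and 339 to 597 CPM). Of the endothelial markers 1 of 6 rose (133 to 185 and 173 to 230.0 CPM), and of the 6 cholangiocyte markers 2 of the 4 tested (41.5 to 65.9 and 74.3 to 134 CPM), while all 5 T cell markers were too low to test (at most 2.04 and 5.27 CPM summed). Most of the cholangiocyte sum was Spp1 (36.6 to 53.7 and 66.2 to 123 CPM). Sox9 of the same list had a log2 fold change of -0.81 and was not called (adjusted p = 0.0773 in edgeR). Of all tested genes, 16.2% were called higher, which is near the endothelial share. No gene of these lists of other cell types was called lower, and their part in the results below was not tested. In whole liver, fewer cells of a type and less RNA per cell cannot be told apart.

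The genes of 3 HSD3B enzymes lie side by side on the reverse strand of mm10 chromosome 3, and their RNAs are alike enough that the counting has to be read with care. The coding sequence of each is 1119 bases long in GENCODE. Hsd3b2 and Hsd3b3 were identical at 95.1% of aligned positions, while Hsd3b5 shared 80.3% with Hsd3b2 and 79.6% with Hsd3b3. The first 90 coding bases fall in a single coding exon in each gene. They are shown because they carry differences that help assign a read of 100 bases among these 3 genes. Capitals mark the 16 positions at which the 3 sequences are not all the same. The stretches lie at chr3:98630109-98630198 (Hsd3b5), chr3:98753366-98753455 (Hsd3b3) and chr3:98716471-98716560 (Hsd3b2), and each is written 5′ to 3′ along its gene.
Hsd3b5: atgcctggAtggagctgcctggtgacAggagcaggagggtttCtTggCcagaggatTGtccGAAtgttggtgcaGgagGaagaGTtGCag
Hsd3b3: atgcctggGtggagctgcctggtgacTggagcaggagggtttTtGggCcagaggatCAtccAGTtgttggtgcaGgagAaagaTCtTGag
Hsd3b2: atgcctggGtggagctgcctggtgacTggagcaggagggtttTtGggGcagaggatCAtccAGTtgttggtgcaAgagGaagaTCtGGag
Hsd3b5 differed from each of the other two at 14 of these 90 bases, and Hsd3b3 differed from Hsd3b2 at 4. The authors kept only reads that map to 1 place, so stretches shared between genes lose their reads. Of all windows of 100 bases along the transcript, 7.79% in Hsd3b5, 14.9% in Hsd3b3 and 12.1% in Hsd3b2 occurred in a gene elsewhere. For Hsd3b5 these genes were Hsd3b4, Gm10681 and Gm4450. The share was 10.5% for Hsd17b6, which is alike to several retinol dehydrogenase genes, and 0 for the other 6 enzymes.

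Loss of hepatocyte Bcl6 went with lower RNA of most of these enzymes and higher RNA of one. In edgeR's quasi-likelihood test, Benjamini-Hochberg adjusted over all 12340 tested genes, 7 of the 10 were called lower in DKO livers (adjusted p under 0.05), against 13.5% of all tested genes. The 7 were Hsd3b5, Srd5a1, Hsd3b2, Hsd17b2, Hsd3b3, Akr1c6 and Hsd17b13. Of these, Hsd3b5 was under the floor in every DKO liver and passed the filter on low counts through the Fxr KO livers alone. Cyp17a1 alone was called higher, against 16.2% of all tested genes, and Hsd11b1 and Hsd17b6 were not called in either direction. For the same 7 genes all 4 DKO livers were below all 4 Fxr KO livers, which held for 15.2% of tested genes, and for Cyp17a1 all 4 were above, which held for 16.1%. The median log2 fold change was -0.82 over the 10 enzymes and 0.01 over all tested genes. The p-values set the genotype difference against the spread between livers of separate mice.

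**Figure D1:**
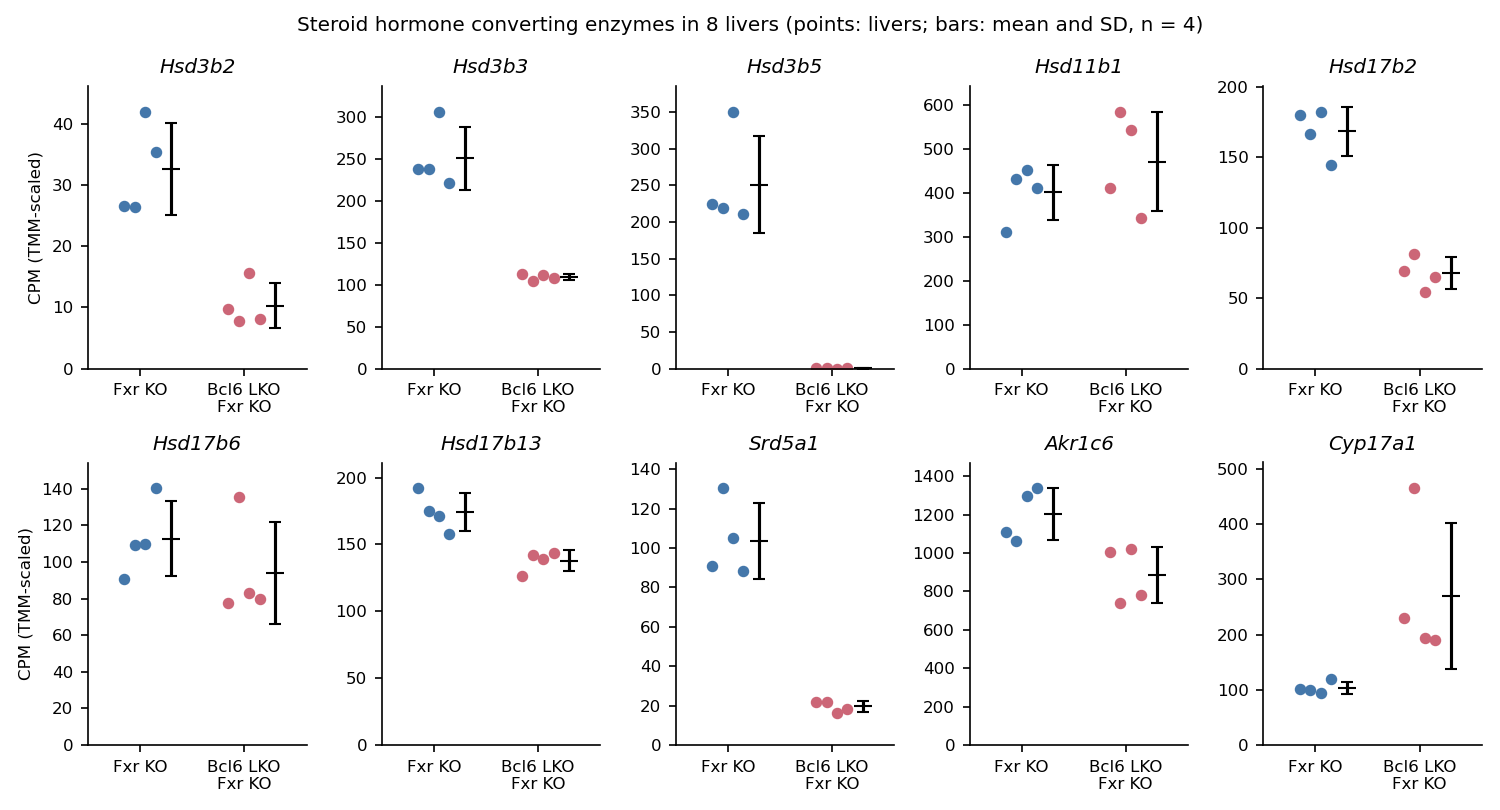
CPM (TMM-scaled) of the 10 enzymes in each liver, with Fxr KO livers in blue, DKO livers (Bcl6 LKO Fxr KO) in red and the mean and SD of each genotype (n = 4) as bars. In 8 of the 10 panels the genotypes do not overlap, while Hsd11b1 and Hsd17b6 overlap, and a single DKO liver stands at 465 CPM for Cyp17a1.

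HSD3B enzymes convert pregnenolone and dehydroepiandrosterone to progesterone and androstenedione, and the mouse liver form HSD3B5, known as male-biased, acts mainly as a reductase of keto steroids. Hsd3b5 (NM_008295, mm10 chromosome 3, 98618636 to 98645534) was at 225, 219, 350.4 and 210.1 CPM in Fxr KO livers 1 to 4 and had 1, 2, 0 and 1 counts in DKO livers 5 to 8. Every DKO liver was thus under the floor of 3 counts, and liver 3 was the highest of the Fxr KO livers. With the Fxr KO mean of 251 CPM set against the mean floor of the DKO livers, 0.308 CPM, Hsd3b5 was at least 816-fold lower (edgeR's quasi-likelihood test, adjusted p = 2.43e-10). Hsd3b5 passed the filter on low counts through the Fxr KO livers alone, so its call and p-value say little beyond these counts.

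Hsd3b3 (NM_001161742, mm10 chromosome 3, 98741476 to 98763128) was at 238, 238, 306 and 221 CPM in Fxr KO livers and at 113, 104, 111 and 108 CPM in DKO livers. The DKO livers lay within a narrow band, with a standard deviation of 3.68 CPM against 38.0 CPM in Fxr KO livers, and the highest of them was below the lowest Fxr KO liver. Hsd3b3 fell to 43.5% of its Fxr KO level, a log2 fold change of -1.20 (SE, the standard error of the fit, 0.12, adjusted p = 1.10e-05 in edgeR).

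Hsd3b2 (NM_001359741, mm10 chromosome 3, 98711107 to 98724543) was at 26.6, 26.4, 42.0 and 35.5 CPM in Fxr KO livers and at 9.67, 7.77, 15.7 and 8.08 CPM in DKO livers. Liver 7 was the highest of the DKO livers and was still below every Fxr KO liver. The log2 fold change of Hsd3b2 was -1.66 (SE 0.23, adjusted p = 0.000219 in edgeR).

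The 3 genes fell by unequal amounts, so the make-up of the HSD3B RNA changed. Among the HSD3B genes other than Hsd3b7, which acts on bile acid precursors, Hsd3b5 held 45.1 to 50.1% of counts in Fxr KO livers and Hsd3b3 held 43.8 to 49.2%, ranges that overlap. In DKO livers Hsd3b3 held 87.4 to 92.8% and Hsd3b5 at most 0.213%. The share of Hsd3b2 was 5.44 to 7.61% in Fxr KO livers and 6.80 to 12.3% in DKO livers, which overlap. A share within a liver does not depend on the scaling between livers. The summed CPM of Hsd3b2, Hsd3b3 and Hsd3b5 was 534 ± 110.0 in Fxr KO livers and 119 ± 6.46 in DKO livers (SD, n = 4), or 22.4% of the Fxr KO level. Summing counts before the test removes the question of how reads are split among the genes but not the loss of shared reads. The sum over all HSD3B genes, of which Hsd3b7 held 49.0 to 58.9% in Fxr KO livers and 73.5 to 80.9% in DKO livers, fell by 1.08 on the log2 scale (adjusted p = 7.62e-05 in edgeR). The sum without Hsd3b7, which was chosen after seeing the data, fell by 2.15 on the log2 scale (adjusted p = 2.74e-07 in edgeR).

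**Figure D2:**
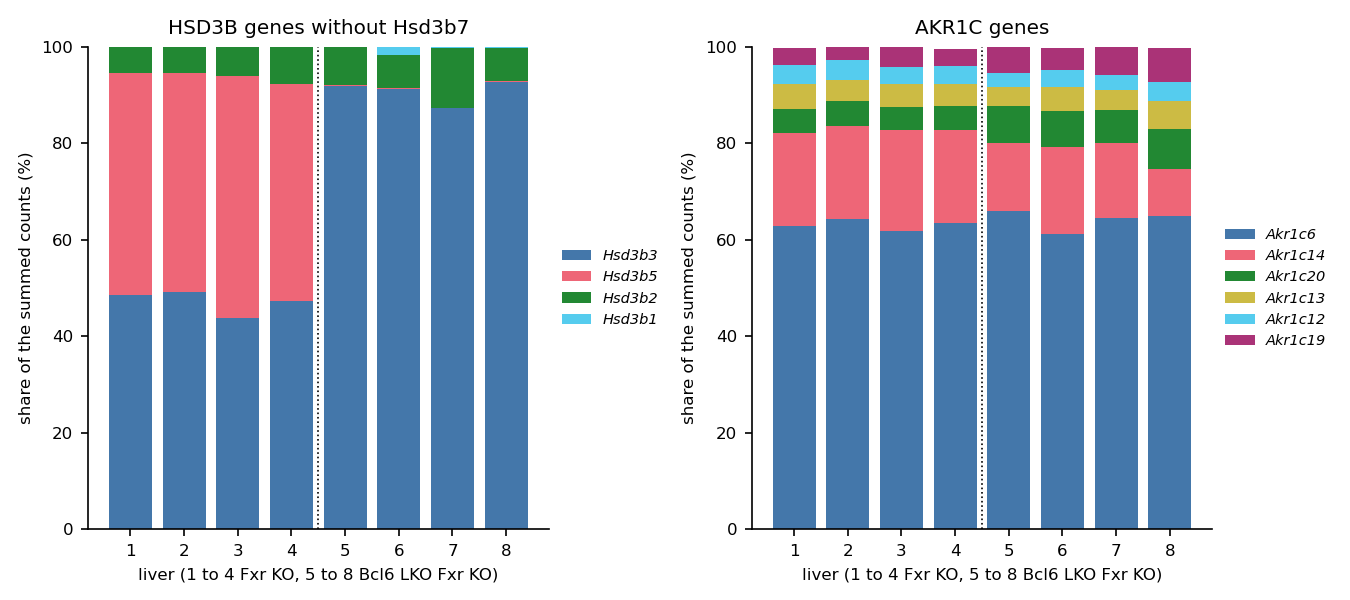
Share of each gene, in percent, in the summed counts of the HSD3B genes other than Hsd3b7 (left) and of the AKR1C genes (right) in each liver, with genes under 0.5% in all livers left out. Hsd3b5 goes from 45.1 to 50.1% in livers 1 to 4 to at most 0.213% in livers 5 to 8, while Akr1c6 stays between 61.3 and 66.0% in all 8 livers.

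SRD5A1 reduces testosterone to dihydrotestosterone and also takes part in the clearance of glucocorticoids and progesterone. Srd5a1 (NM_175283, mm10 chromosome 13, 69573449 to 69611463) was at 90.9, 130.3, 105 and 88.2 CPM in Fxr KO livers and at 22.1, 21.8, 16.5 and 18.3 CPM in DKO livers. The genotypes were far apart, with the highest DKO liver well under the lowest Fxr KO liver. Srd5a1 fell to 19.0% of its Fxr KO level, a log2 fold change of -2.40 (SE 0.15, adjusted p = 1.70e-07 in edgeR).

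AKR1D1 carries out the other kind of ring reduction, which gives the bent ring of bile acids, and its RNA did not pass the test (133 ± 38.2 against 175 ± 43.9 CPM, SD, n = 4, adjusted p = 0.198 in edgeR). The ratio of Srd5a1 to Akr1d1, per transcript length, was 0.894, 1.36, 0.654 and 0.528 in Fxr KO livers and 0.116, 0.143, 0.0732 and 0.145 in DKO livers. All DKO livers were below all Fxr KO livers. The log2 ratio was -0.31 ± 0.60 and -3.12 ± 0.46 (SD, n = 4), a difference of -2.80 (two-sided exact permutation test, p = 0.0286, the smallest that 4 against 4 livers allow). Of the other reductases, Srd5a3 was at 10.6 to 12.5 and 12.6 to 15.9 CPM and was not called (adjusted p = 0.102 in edgeR). Srd5a3 was called higher with limma voom (adjusted p = 0.0375) and in edgeR without liver 8 (adjusted p = 0.0455). Srd5a2 had 5 to 15 counts per liver and was not tested.

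HSD17B2 oxidizes estradiol and testosterone to less active keto forms. Hsd17b2 (NM_008290, mm10 chromosome 8, 117701946 to 117759029) was at 180.3, 167, 182 and 144 CPM in Fxr KO livers and at 69.1, 81.7, 54.3 and 65.3 CPM in DKO livers. The genotypes did not overlap. Its log2 fold change was -1.32 (SE 0.14, adjusted p = 1.31e-05 in edgeR), or 40.1% of the Fxr KO level.

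HSD17B13 sits on lipid droplets and is known as a retinol dehydrogenase. Hsd17b13 (NM_001163486, mm10 chromosome 5, 103963465 to 103977388) was at 192, 175, 171 and 158 CPM in Fxr KO livers and at 126, 142, 139 and 143 CPM in DKO livers. The genotypes did not overlap, although the lowest Fxr KO liver and the highest DKO liver were close. The log2 fold change of Hsd17b13 was -0.34 (SE 0.10, adjusted p = 0.0285 in edgeR). The call was lost when liver 1, 2, 3, 5 or 7 was left out, with adjusted p between 0.0517 and 0.0905 in those edgeR fits and log2 fold changes between -0.35 and -0.29.

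HSD17B6 oxidizes androstanediol and also acts on retinol. Hsd17b6 (NM_001359377, mm10 chromosome 10, 127990933 to 128007611) was at 91.0, 109, 109.8 and 140.3 CPM in Fxr KO livers and at 77.7, 135, 83.2 and 79.6 CPM in DKO livers. Livers 5, 7 and 8 were below every Fxr KO liver, and liver 6 was above all but liver 4. The log2 fold change of Hsd17b6 was -0.26 with a 95% confidence interval from -0.67 to 0.14, and it was not called (adjusted p = 0.315 in edgeR). Without liver 6 it was -0.50 and was called (adjusted p = 0.0221 in edgeR).

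AKR1C6 is the main liver aldo-keto reductase that turns androstenedione into testosterone and estrone into estradiol. Akr1c6 (NM_030611, mm10 chromosome 13, 4434343 to 4457530) was at 1110.4, 1061, 1296 and 1337 CPM in Fxr KO livers and at 1004, 737, 1019 and 783 CPM in DKO livers. The genotypes did not overlap, but livers 5 and 7 were just under liver 2. The log2 fold change of Akr1c6 was -0.44 (SE 0.14, adjusted p = 0.0349 in edgeR), and the call was lost when liver 3, 4, 6 or 8 was left out, with adjusted p between 0.0648 and 0.0972 in those edgeR fits. Akr1c6 made up 61.9 to 64.3% of AKR1C counts in Fxr KO livers and 61.3 to 66.0% in DKO livers, so its share overlapped between genotypes.

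HSD11B1 regenerates active corticosterone inside cells and uses NADPH supplied by H6PD. Hsd11b1 (NM_001044751, mm10 chromosome 1, 193221641 to 193242360) was at 311, 431, 451 and 411 CPM in Fxr KO livers and at 410.1, 585, 544 and 343 CPM in DKO livers. Livers 6 and 7 were above every Fxr KO liver and liver 8 was below livers 2 to 4, so the genotypes overlapped. The log2 fold change of Hsd11b1 was 0.23 with a 95% confidence interval from -0.15 to 0.61 (adjusted p = 0.348 in edgeR). H6pd was at 736 ± 172 and 681 ± 146 CPM (SD, n = 4) and was not called (adjusted p = 0.685 in edgeR). Hsd11b2, which catalyzes the opposite reaction, had 2 counts in liver 6 and 0 in the other 7 livers, so its ratio to Hsd11b1 was not formed.

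CYP17A1 hydroxylates and cleaves progestogens to androgen precursors and is best known from the gonads. Cyp17a1 (NM_007809, mm10 chromosome 19, 46667165 to 46673000) was at 101, 99.2, 94.1 and 119 CPM in Fxr KO livers and at 230.1, 465, 193 and 191 CPM in DKO livers. All 4 DKO livers were above all Fxr KO livers, and liver 6 stood well above the other 3. The log2 fold change of Cyp17a1 was 1.38 (SE 0.27, adjusted p = 0.00399 in edgeR). Without liver 6 it was 0.98 (adjusted p = 0.000134 in edgeR).

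**Figure D3:**
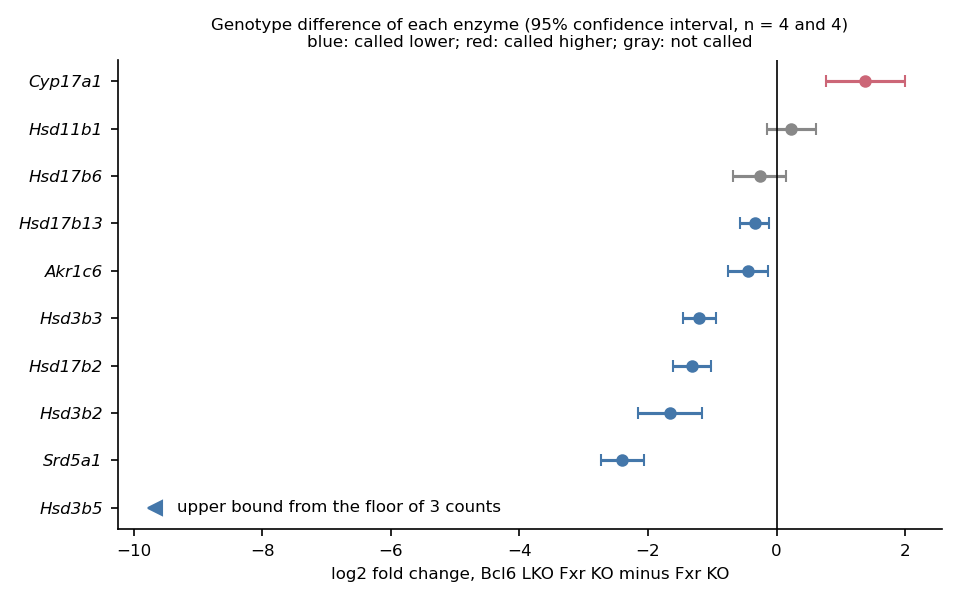
Log2 fold change of each enzyme, DKO minus Fxr KO, with its 95% confidence interval (n = 4 and 4), in red where called higher, blue where called lower and gray where not called. Cyp17a1 lies at 1.38, the intervals of Hsd11b1 and Hsd17b6 include 0, and the triangle marks the bound of Hsd3b5, at least 9.67 lower, computed from the floor of 3 counts.

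Defining markers of the adrenal cortex, which makes steroids, were at or near 0. Of the 6 adrenal cortex markers, Cyp11b1, Cyp11b2 and Mc2r had 0 counts in all 8 livers, Cyp11a1 at most 1 count and Cyp21a1 at most 2. Star, which moves cholesterol into mitochondria, was the one detected, at 1.98 to 2.75 CPM in Fxr KO livers and at 11.6, 2.79, 26.2 and 21.1 CPM in DKO livers 5 to 8. Liver 6, the highest for Cyp17a1, was thus the lowest of its genotype for Star, and just above the Fxr KO livers. Star was called higher, with a log2 fold change of 2.73 (SE 0.62, adjusted p = 0.0121 in edgeR), but not with limma voom (2.22, adjusted p = 0.0960). Cyp19a1, the aromatase that makes estrogens, had 0 counts in all livers.

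Levels were compared between the enzymes per kilobase of transcript. In Fxr KO livers Akr1c6 was highest at 891 ± 101 CPM per kb and Hsd11b1 next at 299.6 ± 46.6 (SD, n = 4), and both were apart from their neighbours in every liver. Hsd3b5 (157 ± 41.5), Hsd3b3 (142 ± 21.6), Hsd17b13 (136 ± 11.1) and Hsd17b2 (132 ± 13.8 CPM per kb) followed, and each overlapped the next in this order. Hsd17b6 (74.1 ± 13.5) and Cyp17a1 (56.4 ± 5.98 CPM per kb) also overlapped, while Srd5a1 (39.0 ± 7.26) and Hsd3b2 (17.8 ± 4.12 CPM per kb) did not overlap each other or Cyp17a1.

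In DKO livers the order began with the same pair, Akr1c6 at 657 ± 109 and Hsd11b1 at 351 ± 84.4 CPM per kb (SD, n = 4). Cyp17a1, at place 8 in Fxr KO livers, was at place 3 with 147 ± 71.8 CPM per kb, and it overlapped Hsd17b13 at 108 ± 6.26. Hsd3b3 (61.9 ± 2.09), Hsd17b6 (61.8 ± 18.2) and Hsd17b2 (53.1 ± 8.89 CPM per kb) overlapped one another. Srd5a1 (7.39 ± 1.04) and Hsd3b2 (5.61 ± 2.01 CPM per kb) overlapped, and Hsd3b5 went from place 3 to place 10, with every liver under the floor of 3 counts, which is 0.170 to 0.227 CPM per kb for this gene.

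**Figure D4:**
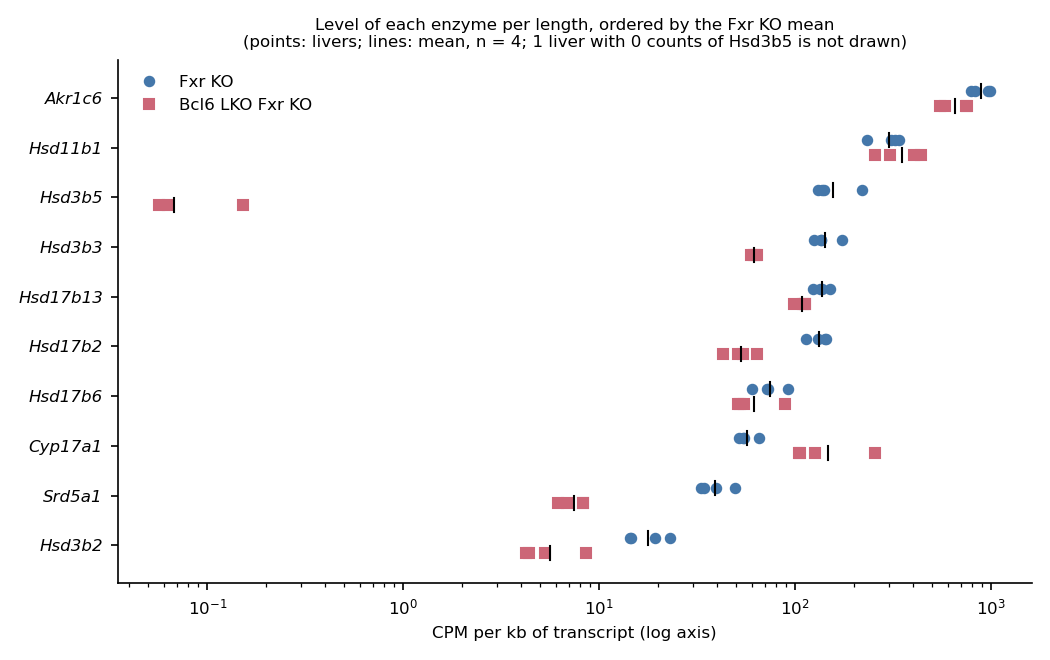
CPM per kilobase of transcript (log axis) of the 10 enzymes, with 1 point per liver, Fxr KO in blue circles and DKO in red squares, and the mean of 4 livers as a line. Akr1c6 and Hsd11b1 are highest in both genotypes, Cyp17a1 moves from place 8 to place 3, and Hsd3b5 from place 3 to place 10.

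Beside the 10 enzymes, 8 hand-written lists of steroid pathway genes held 54 further genes, of which 51 were in the table and 34 were tested. Of these 34, 6 were called higher and 11 lower in DKO livers, against 16.2% and 13.5% of all tested genes, so the share called higher was near that of all genes. In the HSD3B family 4 genes were tested, Hsd3b5 through the Fxr KO livers alone. All 4 were called lower, the median log2 fold change being -1.43. Besides the 3 above, this was Hsd3b7, at 651 ± 67.7 and 443 ± 73.8 CPM (SD, n = 4), with a log2 fold change of -0.56 (SE 0.14, adjusted p = 0.00976 in edgeR). Hsd3b4 had 0 counts in all livers, but 100% of its windows of 100 bases occur in other genes, so unique reads could not show it. Hsd3b6 had 1 count in liver 1 and 0 elsewhere, and Hsd3b1 had 16, 4 and 2 counts in livers 6, 7 and 8 and 0 in the other 5.

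In the HSD17B family 6 of 8 tested genes were called lower, against 13.5% of all tested genes, the median log2 fold change being -0.51. These counts include Hsd17b2, Hsd17b6 and Hsd17b13, described above, of which Hsd17b2 and Hsd17b13 were called lower. Hsd17b11, a lipid droplet enzyme, was at 136 ± 7.96 and 70.5 ± 12.0 CPM (SD, n = 4), with a log2 fold change of -0.94 (adjusted p = 0.000128 in edgeR). Hsd17b10, a mitochondrial dehydrogenase, fell by 0.93 on the log2 scale and Hsd17b12, which elongates fatty acids, by 0.67. Hsd17b4 of the peroxisome, with a log2 fold change of -0.34, was just past the threshold (adjusted p = 0.0480 in edgeR), and its call was lost when any of livers 1 to 7 was left out. Hsd17b7 of cholesterol synthesis was at 47.1 ± 12.4 and 43.1 ± 7.37 CPM (SD, n = 4) and was not called. Hsd17b1, which makes estradiol, Hsd17b3, which makes testosterone in the testis, and Hsd17b14 had at most 6 counts in any liver.

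In the AKR1C family 5 of 7 tested genes were called lower, against 13.5% of all tested genes, the median log2 fold change being -0.53, and the summed counts of the family fell by 0.47 on the log2 scale (adjusted p = 0.0246 in edgeR). Both the 5 genes and the sum include Akr1c6, described above. Akr1c14, which reduces dihydrotestosterone, was at 375 ± 54.3 and 198 ± 55.7 CPM (SD, n = 4), a log2 fold change of -0.92 (adjusted p = 0.00421 in edgeR). Akr1c12 and Akr1c13 fell by 0.65 and 0.53 on the log2 scale, and 11.5% of the windows of each occur in the other. Akr1c18, an enzyme that inactivates progesterone, was low, at 1.12 to 10.3 CPM in Fxr KO livers and 0.779 to 1.33 CPM in DKO livers, and was called lower although the genotypes overlapped (adjusted p = 0.0444 in edgeR). That call was lost when liver 1, 4, 5, 6, 7 or 8 was left out, and with limma voom (adjusted p = 0.175), and without liver 4 the log2 fold change was -0.98 in place of -1.96. Akr1c19 and Akr1c20 were not called, at 66.2 ± 17.0 and 79.0 ± 15.6 CPM and at 94.1 ± 8.64 and 104 ± 10.5 CPM (SD, n = 4). Akr1c21 had at most 2 counts in any liver, and Akr1cl had 0.

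Proteins that work with the steroid cytochromes went in both directions. Cyb5r3, a reductase of cytochrome b5, was at 752 ± 95.8 and 1229 ± 246 CPM (SD, n = 4) and was called higher, with a log2 fold change of 0.71 (adjusted p = 0.00426 in edgeR). Fdx1, the ferredoxin of mitochondrial cytochromes, was at 84.2 ± 19.2 and 51.0 ± 2.37 CPM (SD, n = 4) and fell by 0.72 on the log2 scale (adjusted p = 0.00268 in edgeR). Por, Cyb5a and Fdxr were not called, with log2 fold changes of 0.19, -0.25 and -0.32. With total counts alone Cyb5a and Fdxr were called lower, and Fdxr also without liver 8.

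Of the plasma carriers and receptors, Serpina6, which encodes corticosteroid-binding globulin, differed most. It was at 287 to 671 CPM in Fxr KO livers and at 21889 to 25874 CPM in DKO livers, a log2 fold change of 5.72 (SE 0.25, adjusted p = 7.56e-09 in edgeR), and made up 2.12 to 2.41% of all counts in the latter. Shbg, the carrier of sex steroids, had 0 counts in all livers. Esr1, the estrogen receptor, was at 5.10 to 11.6 and 9.44 to 36.3 CPM and was called higher with overlapping genotypes (log2 fold change 1.22, adjusted p = 0.0448 in edgeR), a call that was lost when any of livers 1 to 7 was left out. Nr3c1, the glucocorticoid receptor, was at 48.2 ± 4.26 and 34.8 ± 10.4 CPM (SD, n = 4) and was not called (adjusted p = 0.0692 in edgeR). Nr3c1 was called lower with limma voom (adjusted p = 0.0390). The same held in edgeR with total counts alone (adjusted p = 0.0225) and without liver 7 (adjusted p = 0.00920). Nr3c2, the mineralocorticoid receptor, was at 1.75 to 5.27 and 2.91 to 8.67 CPM and was not called (adjusted p = 0.640 in edgeR). Pgr had at most 8 counts in any liver.

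Genes known to respond to glucocorticoids did not move together. Sgk1 (14.6 ± 3.66 and 39.5 ± 13.2 CPM, SD, n = 4) and Fkbp5 (70.5 ± 31.4 and 151 ± 20.0 CPM) were called higher (adjusted p = 0.00131 and 0.025 in edgeR). The call of Fkbp5 was lost when liver 2, 6, 7 or 8 was left out. Tsc22d3 was called lower, at 65.4 to 229 CPM in Fxr KO livers and 25.2 to 43.2 CPM in DKO livers, a log2 fold change of -1.92 (adjusted p = 0.00926 in edgeR). Tat, Klf9 and Zbtb16 were not called, with log2 fold changes of 0.26, -0.90 and -0.44, nor were the other 2 tested genes of this list, and the median over the 8 genes was -0.03. Klf9 was called lower in 3 of 15 alternatives.

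**Figure D5:**
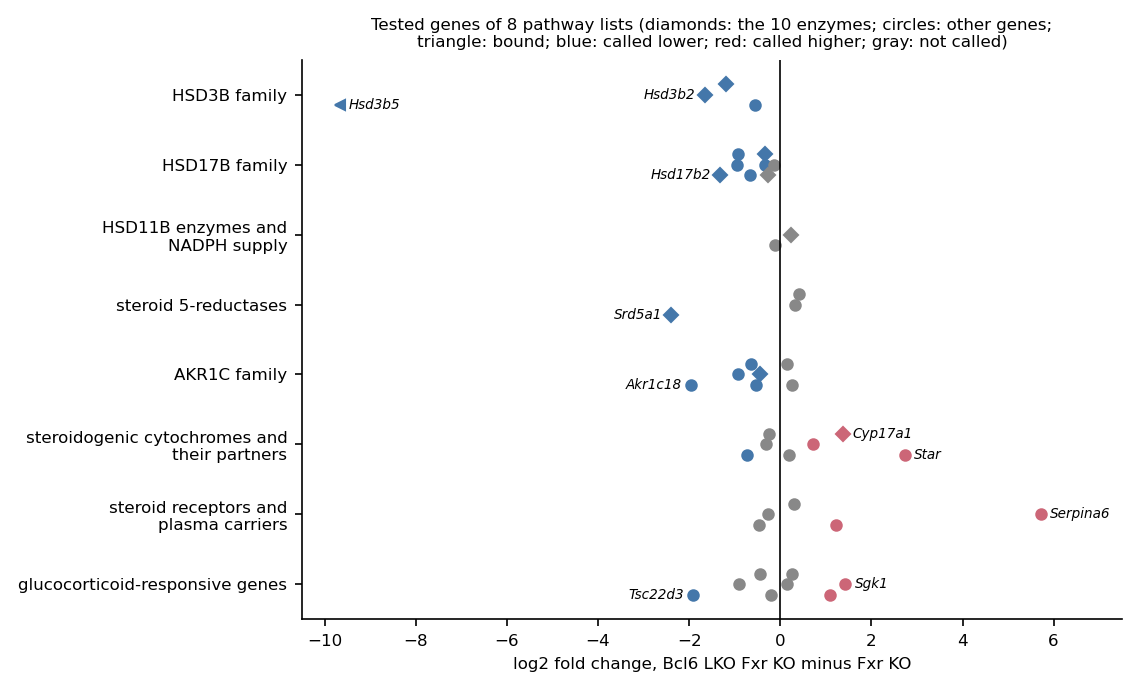
Log2 fold change (DKO minus Fxr KO) of each tested gene in the 8 pathway lists, 1 row per list, with diamonds for the 10 enzymes, circles for other genes and a triangle at the bound of Hsd3b5. Every tested HSD3B gene is blue (called lower), the HSD17B and AKR1C rows hold blue and gray points, and Serpina6 lies farthest to the right at 5.72.

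For the enzymes with the largest rise and the largest fall, the 3 tested genes with the most similar profile were found by the root-mean-square distance over the 8 livers between log2 CPM, each relative to its Fxr KO mean. For Cyp17a1 these were Fbln1 (distance 0.20), Ptpre and Pygb (0.23 each). Fbln1 was also highest in liver 6, at 8.13 CPM against 2.91 to 3.12 CPM in the other DKO livers. Liver 6 was among the values matched, so this peak follows from how Fbln1 was chosen. Fbln1 was low, with 12 to 17 counts per Fxr KO liver. For Hsd3b5 they were Mup1 (0.53), Mup9 (0.98) and Moxd1 (1.27). Each of these 3 had 1 count in liver 6 and 0 in livers 5, 7 and 8. Like Hsd3b5 they were under the floor in every DKO liver and passed the filter on low counts through the Fxr KO livers alone, so the distance says little beyond that, and the 2 Mup genes have near copies, so their counts are uncertain.

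The promoters of 8 of the 10 enzymes, all but Cyp17a1 and Hsd17b2, were in the RefSeq table (GRCm38.p6), with 10 start sites between them and with windows of 250 bases before to 50 after each start. TTCNNNGAA, the motif type bound by STAT5 and BCL6, occurred in none of the 10 windows on either strand, and in 8.30% of all 32851 windows. AGGTCA, a motif of nuclear receptors, occurred on either strand in the window of Hsd17b13 alone, against 16.3% of all windows. The bases around it are shown as the one match found, at chr5:103977452-103977511 on the reverse strand, with the match, which reads AGGTCA on the opposite strand, in capitals from -96 to -91 relative to the start.
Hsd17b13: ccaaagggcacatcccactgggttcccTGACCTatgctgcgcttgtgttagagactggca
A match describes letters and not binding, and no match says only that these letters are not in these windows. Over the same windows Hsd3b5 was identical to Hsd3b2 at 48.1% of aligned positions and to the start sites of Hsd3b3 at 54.1 and 55.1%, lower than over the coding sequences. By the same alignment Hsd3b5 and Hsd3b7, which lies on chromosome 7, were identical at 41.7%, and Hsd3b2 and Hsd3b3 at 40.7 and 40.9%.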

How the data were processed

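Liver RNA of 4 FXRKO and 4 BCL6LKOFXRKO males was sequenced. The authors made stranded poly(A) libraries, aligned single-end reads of 100 bases to mm10 with STAR 2.5.2, allowed 4 mismatches and only 1 location, and deposited the unscaled exon counts of HOMER 4.10, with 1 transcript per gene. The counting options do not name a strand, and Hsd3b2, Hsd3b3, Hsd3b5, Hsd11b1, Hsd17b2 and Srd5a1 overlap other annotated genes, so antisense reads cannot be told apart. The versions come from the submitters' processing notes. The study's methods name DESeq2.

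Counts were tested in R 4.3.3 with edgeR 4.0.16 (filterByExpr, TMM, robust quasi-likelihood fit, Benjamini-Hochberg over 12340 genes) across all 8 livers with no covariate, with calls at adjusted p under 0.05. CPM use TMM library sizes, and CPM per kb divide by the transcript length in the table. Alternatives were DESeq2 1.42.0, limma voom 3.58.1, RLE factors, total counts alone, leaving out the 50 most counted genes, other filters, each liver left out, a fold threshold of 0.5 (log2), summed families and, chosen after seeing the data, HSD3B counts summed without Hsd3b7. Livers of 1 genotype differed by more than sampling noise (chi-square per degree of freedom 10.7 to 49.3 over 12 pairs). Windows and coding sequences came from GENCODE vM21 transcripts. Identity is the share of identical columns in a global alignment.

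The members and gene lists were chosen with earlier results of these data known. Named were all 10 enzymes, up to 3 further genes of each list in each direction by smallest adjusted p, list genes at or near 0, and 3 genes of most similar profile. Genes named besides these (Hsd17b4, Hsd17b7, Akr1c18, Per1, Dusp1) were chosen after their values were seen.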

Additional observations from a re-analysis of the deposited data

Results flagged for a closer look

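In groups of 4 livers, a liver stood apart when its gap to the nearest other liver, divided by the range of its group, passed Dixon's 95% critical value. Of 89 such groups checked, 7 did. Chance alone would give about 4.45 if the groups were independent and their values normally distributed. The same 8 livers recur in all groups, so 7 cannot be judged against that number. The ratio was 0.895 for Hsd3b5 in Fxr KO liver 3 (350.4 CPM against 210.1 to 225 CPM). In Bcl6 LKO Fxr KO liver 6 it was 0.904 for Hsd17b6 (135 CPM against 77.7 to 83.2), 0.857 for Cyp17a1 (465 CPM against 191 to 230.1) and 0.871 for Zbtb16 (15.2 CPM against 2.73 to 4.33). It was 0.858 for Hsd17b10 in Bcl6 LKO Fxr KO liver 8 (114 CPM against 81.3 to 85.9), 0.929 for Nr3c2 in Bcl6 LKO Fxr KO liver 7 (8.67 CPM against 2.91 to 3.32) and 0.930 for Klf9 in Fxr KO liver 2 (95.6 CPM against 61.1 to 63.5). In all 7 the liver was the highest of its genotype, and 3 of them were in liver 6.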

How the results depend on the processing

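The counts of enzymes called higher (1) and lower (7) and of further pathway genes called higher and lower stayed within 1.5 times their value under all alternatives run. The log2 difference of the ratio of Srd5a1 to Akr1d1 ranged from -3.01 to -2.55 with 1 liver left out, and since its groups do not overlap, its p could only be the smallest possible. Over the 10 enzymes, 146 of the alternative log2 fold changes kept direction and call. Another 9 lost the call (Hsd17b13 and Akr1c6, with 1 liver left out), 1 gained it (Hsd17b6 without liver 6) and 0 turned. The 146 include fits of summed families, where the value of the sum stood for Hsd3b2, Hsd3b3, Hsd3b5 and Akr1c6. Those entries are not refits of the single gene. The same holds for the count of enzymes called lower with summed families. With 1 liver left out, 5 to 7 enzymes were called lower, with a fold threshold 5 were, and with at least 10 counts in every liver, which drops Hsd3b5, 6 were. Over the 34 further genes, of which 5 were added to these refits after seeing the data, 456 refits kept direction and call, 31 lost it, 11 gained it and 10 turned, none of them called. The gained calls were of Nr3c1 (3), Klf9 (3), Srd5a3 (2), Fdxr (2) and Cyb5a (1). With 1 liver left out H6pd ranged from -0.27 to 0.019 (above 0 without liver 2), Nr3c2 from -0.24 to 0.52 (below 0 without liver 7), Hsd17b7 from -0.27 to 0.030 (above 0 without liver 4), Per1 from -0.51 to 0.17 (above 0 without liver 4 or 5) and Dusp1 from -0.21 to 0.42 (below 0 without liver 1 or 7). With total counts alone Akr1c20 was -0.0062 and Dusp1 -0.013, and with limma voom Hsd17b7 was 0.022. Total counts alone shifted the median of all genes by -0.16, and 32.3% of called genes were then higher, against 54.5% with TMM, while 1 enzyme was still called higher and 7 lower. The cause of these changes was not tested. No paired analysis was possible because the labels give the genotypes no shared replicate numbers. At these depths, genes at or under 3 counts are bounded only.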
